A study of Mus musculus with 6 samples.

Results

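The adhesion G protein-coupled receptors are taken here as the genes on the array whose names start with Adgr, other than Adgre1. These are 26 genes among 36610 gene names. The Celsr genes belong to the family without that prefix and are given apart. The family was taken up because 1 member, Adgrf4, was higher in ureters labelled Col17a1-KO, so the difference of Adgrf4 between the groups is given as a description with no test, and the same holds for the other members, which share that contrast. RNA came from ureters of C57BL/6N mice aged 2 months, taken 4 days after unilateral ureteral obstruction, in which the ureter of 1 side is blocked. All 6 samples came after obstruction, so no unobstructed ureter enters. The groups are 3 samples with the genotype Col17a1-WT, all labelled male, and 3 with Col17a1-KO, of which replicates 1 and 2 are labelled male and replicate 3 female. How Col17a1 was altered is not in the labels, which also do not state that each sample is a different animal, so p-values measure the spread between these samples. The labelled tissue is ureter and the labels name no sort of its cells, and all 9 genes of a superficial urothelium list and all 9 of a smooth muscle list were measured.

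Adhesion receptors carry a long extracellular part with adhesive domains, followed by a GAIN domain that most of them cut during synthesis, and a bundle of helices that cross the membrane. After the cut the extracellular fragment stays attached, and its removal or movement exposes a short tethered peptide that activates the receptor. The subfamilies bind different partners: ADGRL receptors bind teneurins and FLRT proteins, ADGRG6 binds collagen IV and laminin, ADGRE5 (CD97) binds CD55, and ADGRG1 (GPR56) binds collagen III. ADGRA2 works with RECK in Wnt7 signalling of vessels.

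Of the 26 members, 20 were well above the array's background on all 6 arrays at their brightest probe (76.9%, against 58.2% of all gene names), and the same 20 entered the fit over 22260 genes. The other 6, Adgrf1, Adgrf2, Adgrf3, Adgrg4, Adgrg7 and Adgrv1, had no probe well above background on every array of a group. Of the 58 member probes, 29 passed that flag on each of the 6 arrays and 26 on none. An array value here is the log2 processed signal minus the 75th percentile of its array, so 0 is the level below which 75% of probes lay, and values of different genes are not compared.

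The 75th-percentile signals ranged from 143.7 to 164.9, all 6 arrays lay on 1 slide with 1 scan time, and correlations between arrays across genes were 0.977 to 0.993. Col17a1, which encodes collagen XVII of the hemidesmosome, was not lower in the KO-labelled ureters: its values were -2.33, -0.80 and -0.39 in WT and 0.50, 0.53 and 0.40 in the KO-labelled arrays (limma, difference 1.65 with a standard error of 0.48, adjusted p = 0.457). The difference was 1.07 without WT replicate 1, and also 1.07 with normexp background, a model-based correction of the raw spot signals. Both its probes were higher in that group, and whether they lie in the altered stretch is not known, so the group is called KO-labelled. The kidney tubule and podocyte list, of which 5 of 10 genes were measured (Umod, Slc12a1, Slc12a3, Nphs1 and Kap were not well above background), had a mean of -1.96 in WT replicate 2 and between -3.89 and -3.78 in the other 5 arrays.

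Adgrf4 (GPR115), an orphan member of subfamily F known from keratinising epithelium and from the enamel-forming ameloblasts, had the largest difference among the measured members. Its probe lies on chromosome 17 at 42794108 to 42794167 (mm9, minus strand). Values were -3.68, -3.31 and -2.43 in WT and -1.66, -1.05 and -1.89 in KO-labelled ureters, so every KO-labelled array lay above every WT array. The processed signals behind them were dim, 12.3, 14.5 and 29.3 units in WT and 50.04, 79.5 and 39.3 units in KO-labelled ureters, although all 6 were well above background. The means were -3.14 ± 0.64 and -1.53 ± 0.43 (SD, n = 3 arrays each), a fitted difference of 1.61 with a standard error of 0.37, or 3.04-fold. The difference was 0.60 with normexp background, in which an offset of 50 is added to every signal, and 1.34 to 1.96 with each array left out.

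The window before the listed start of Adgrf4 is printed because Adgrf4 is the member with the largest difference, with that of Adgrg1 beside it as the other measured member in which the TGANTCA motif was found. The sequences are from RefSeq's GRCm38.p6, 5′ to 3′ on the gene's strand, and cover the 250 bases before the start, chr17:42692285-42692534 (minus) for Adgrf4 and chr8:94984149-94984398 (plus) for the second listed start of Adgrg1. The listed Adgrf4 start lies inside the gene's annotated span (42656208 to 42697569), so this is not the window before the outer end of that span. Capitals mark each match to TGANTCA, which is looser than the AP-1 motif, since any base may stand at N where that motif has C or G. The second match of Adgrf4, TGAATCA, has A there and so is not a match to the AP-1 motif itself.
Adgrf4: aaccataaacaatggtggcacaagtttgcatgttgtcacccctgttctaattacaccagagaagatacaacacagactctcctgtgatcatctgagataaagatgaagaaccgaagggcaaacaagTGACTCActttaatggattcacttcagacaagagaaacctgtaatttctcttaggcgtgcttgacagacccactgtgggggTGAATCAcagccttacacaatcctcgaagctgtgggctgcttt
Adgrg1: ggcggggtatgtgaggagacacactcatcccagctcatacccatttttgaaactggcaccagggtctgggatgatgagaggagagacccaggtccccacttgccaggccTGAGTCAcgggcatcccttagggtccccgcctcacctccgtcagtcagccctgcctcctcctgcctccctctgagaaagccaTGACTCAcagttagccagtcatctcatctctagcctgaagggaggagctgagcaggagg
In all 5 motifs were searched on both strands: TGANTCA, the TATA box as TATAAA, the GC box as GGGCGG, the core of the antioxidant response element as TGACNNNGC, and the E-box as CACGTG. Matches to TGANTCA and to TGACNNNGC can overlap, since both start with the same letters. Neither printed window held a match to the other 4. TGANTCA was found at bases -124 to -118 and -43 to -37 before the start of Adgrf4, and at -141 to -135 and -59 to -53 for Adgrg1. Of all 32851 windows of this length 6.75% held TGANTCA at least once and 0.338% held 2 or more. These shares are for the looser pattern and not for the AP-1 motif. Of 24 windows of 20 members with an entry, 3 held TGANTCA (Adgrf4, Adgrg1 and Adgrg4), 13 held GGGCGG (32.7% of all windows did), 2 held TATAAA (12.4% of all windows), and none held TGACNNNGC or CACGTG, which 10.2% and 6.02% of all windows held. The 13 windows with GGGCGG include 3 of Adgrl3, of which 2 overlap and share a match, and the median GC content was 59% in member windows against 52.4% in all. A match is a run of letters and was not tested for binding.

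In the mm9 probe coordinates, 4 of the 5 subfamily F members lie on chromosome 17 in the order Adgrf4, Adgrf2, Adgrf1, Adgrf5. The probes of Adgrf4 and Adgrf2 lie 51.9 kb apart, and in RefSeq's GRCm38.p6 the annotated spans of these genes share 3542 bases. Adgrf2 (GPR111), the nearest neighbour, stayed below that flag on all 6 arrays: the values of its brighter probe were -7.22, -7.10 and -7.21 in WT and -7.24, -7.28 and -7.08 in KO-labelled ureters. Adgrf1 (GPR110), a receptor of synaptamide in neurons, was also unflagged on all 6 arrays, with brighter-probe values of -5.91, -6.19 and -7.34 in WT and -7.39, -7.40 and -6.01 in KO-labelled ureters. Adgrf3 on chromosome 5 had values of -6.68, -6.17, -5.90, -5.80, -7.36 and -7.19 in the same order of arrays, none well above background. Nothing can be read from the order of these dim values.

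Adgrf5 (GPR116), a receptor of lung epithelium and of endothelium that limits surfactant, was measured by 2 probes. Its brighter probe had values of 1.11, 0.88 and 1.23 in WT and 1.37, 1.84 and 0.81 in KO-labelled ureters. KO-labelled replicates 1 and 2 lay above the WT range and replicate 3 below it, so the groups overlapped, and the means differed by 0.27 (standard error 0.27; 0.02 without KO replicate 2, 0.54 without KO replicate 3). Within the cluster the measured genes therefore had differences of 1.61 and 0.27, and the other two were not measured. The second Adgrf5 probe differed by 0.37.

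**Figure D1:**
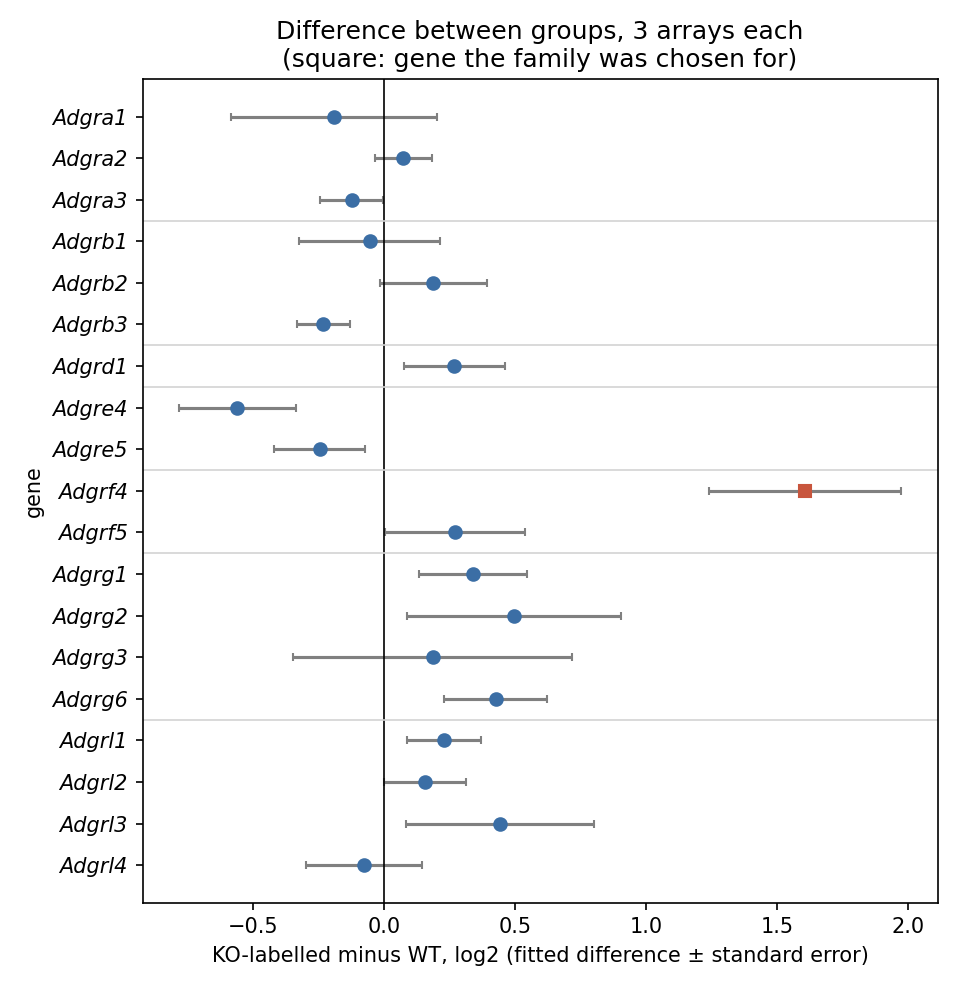
Fitted difference between the 3 KO-labelled and 3 WT arrays in log2 units (x axis) with its standard error for 19 measured members (y axis, grouped by subfamily). Adgrf4, the gene the family was chosen for, lies at 1.61, and the others shown lie between -0.56 and 0.50.

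Across the 20 measured members, 12 were higher in the KO-labelled group (60%) and 8 lower, with a median difference of 0.17, where 49.8% of the 22260 genes were higher, 50.2% lower, and their median was -0.00087. No gene passed an adjusted p under 0.05 in limma (percent called 0 of 22260 genes, with a lowest adjusted p of 0.229 and 2017 genes at an unadjusted p under 0.05, 9.06%), so no member did. The groups did not overlap for 2 of 20 members, Adgrf4 with KO-labelled arrays above and Adgrb3 with KO-labelled arrays below, against 15.4% of all genes (7.28% above and 8.13% below). Adgrf4, for which the family was chosen, was the only measured member with a difference of 1 or more in size at its brightest probe, so nothing is read from that count (1.66% of all genes had such a difference). Without KO replicate 3 the groups did not overlap for 11 members (33.7% of all genes), without KO replicate 2 for 6 (20.2%), and without WT replicate 1 for 4 (32.4%). The median difference of the members lay between 0.04 and 0.20 with each array left out.

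For 11 members KO replicates 1 and 2 both lay outside the WT range on the same side, above for 7 and below for 4, but replicate 3 was outside on that side for only 2 of these 11 (Adgrf4 and Adgrb3). It lay within the WT range for 7 of the 11, among them Adgrd1, Adgre4, Adgrg1 and Adgrg2, and beyond it on the opposite side for Adgre5 and Adgrf5. Over all 22260 genes, KO replicates 1 and 2 left the WT range on the same side for 33.6%, and of those genes replicate 3 was outside on that side for 45.9%, within for 44.6% and on the opposite side for 9.48%. The 11 members are not independent of the contrast that chose the family, and the difference between them and all genes was not tested. KO replicate 2 was the highest array for 9 of the 20 members. KO replicate 3 is the only female, so sex and that sample cannot be told apart.

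**Figure D2:**
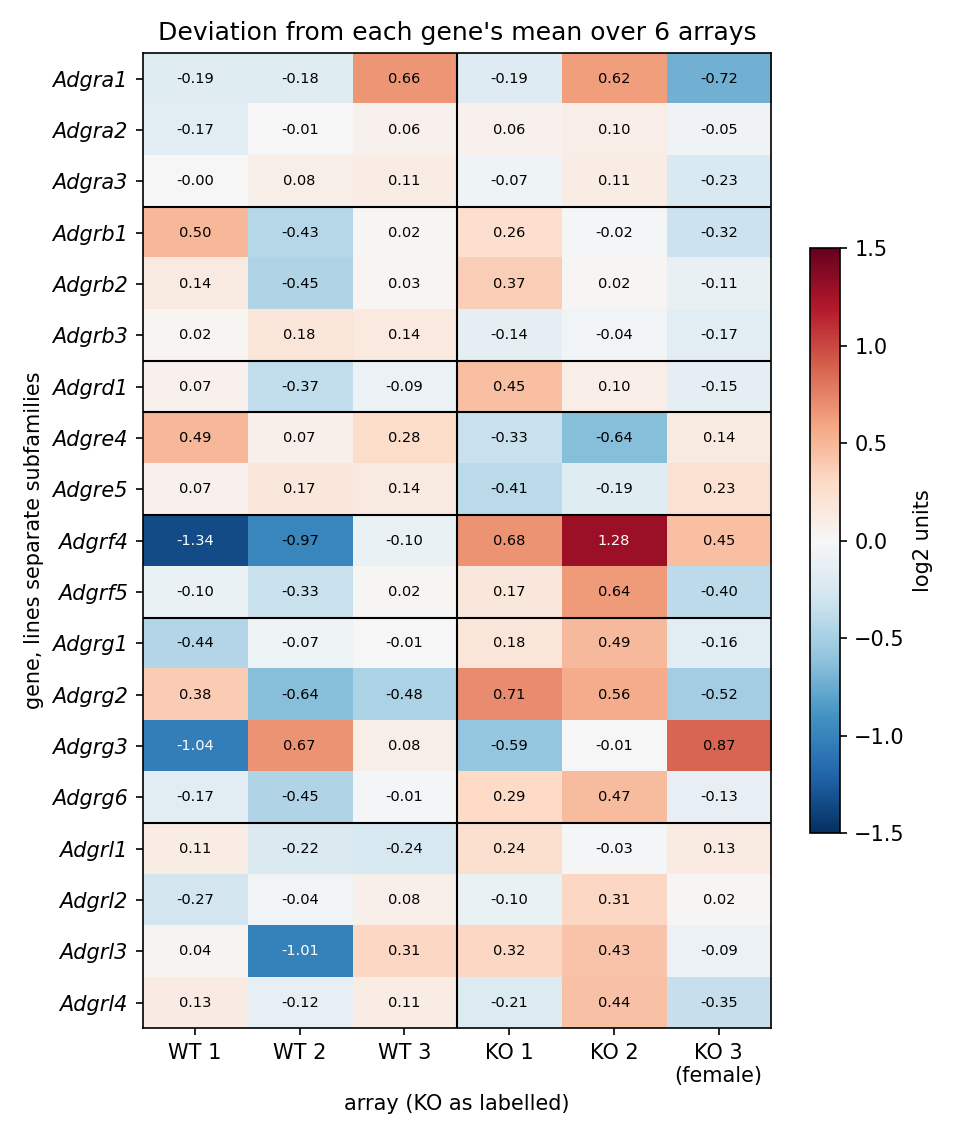
Log2 value minus the gene's mean over the 6 arrays, in log2 units, for 19 measured members (rows, lines separate subfamilies) on each array (columns). Adgrf4 spans 2.62 over the 6 arrays, lowest in WT replicate 1 and highest in KO replicate 2, which is the highest array in 9 rows.

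Subfamily E holds leukocyte receptors with EGF-like repeats, and both measured members were lower on average (median -0.40). Adgre4 (FIRE), which marks macrophages and dendritic cells, had values of -1.07, -1.496 and -1.29 in WT and -1.90, -2.21 and -1.43 in KO-labelled ureters. KO-labelled replicates 1 and 2 were the lowest arrays and replicate 3 lay within the WT range. The means differed by -0.56 (standard error 0.22; -0.28 with normexp background). Adgre5, the CD55-binding receptor of many leukocytes, had values of 4.51, 4.61 and 4.58 in WT and 4.04, 4.26 and 4.67 in KO-labelled ureters. WT arrays lay close together and KO replicate 3 was the highest of all 6, with a difference of -0.25 and a standard error of 0.17 (-0.42 without KO replicate 3, -0.10 without KO replicate 1). Its second probe had a difference of -0.09.

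Subfamily G had 7 members, of which 5 were measured, with 4 higher and a median of 0.34. Adgrg2 and Adgrg6 were chosen for description by array after their values were seen. Adgrg1 and Adgrg3 are neighbours on chromosome 8, with a gap of 25.7 kb between their probes (mm9), and their differences were 0.34 and 0.18.

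Adgrg3 (GPR97), a receptor of neutrophils, had the second-widest range of the members over the 6 arrays, 1.91. Its values were -0.63, 1.09 and 0.50 in WT and -0.17, 0.40 and 1.28 in KO-labelled ureters. The lowest array was WT replicate 1, the highest KO replicate 3, and the means differed by 0.18 with a standard error of 0.53. The sign turned without WT replicate 1 (-0.29) and without KO replicate 3 (-0.21).

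Adgrg1, a receptor of collagen III found on cytotoxic lymphocytes and on many epithelia, had values of 1.93, 2.30 and 2.36 in WT and 2.55, 2.85 and 2.20 in KO-labelled ureters. Replicates 1 and 2 of the KO-labelled group lay above the WT range, and the means differed by 0.34 (standard error 0.21; 0.18 without KO replicate 2). Adgrg6 (GPR126), which drives myelination by Schwann cells, had values of -1.13, -1.41 and -0.97 in WT and -0.66, -0.48 and -1.08 in KO-labelled ureters, and a difference of 0.42 with a standard error of 0.20. Both of its measured probes differed by 0.42, and the Schwann cell list (6 of 7 measured, Cdh19 not) had a median of 0.25. The array means of that list were 0.22, -0.35 and -0.31 in WT and 0.32, -0.18 and 0.30 in KO-labelled ureters. KO replicate 2 was thus the lowest KO-labelled array for the list and the highest for Adgrg6. Adgrg2 (GPR64), best known in the efferent ducts of the epididymis, had values of -0.53, -1.55 and -1.39 in WT and -0.20, -0.35 and -1.43 in KO-labelled ureters, and a difference of 0.50 with a standard error of 0.41. It was 0.27 without KO replicate 1, 0.30 without WT replicate 2, 0.81 without WT replicate 1, 0.88 without KO replicate 3 and 0.30 with normexp background. WT replicate 1 stood with KO replicates 1 and 2 for this gene, and WT replicates 2 and 3 with KO replicate 3. The smooth muscle list, 9 of 9 measured and all higher (median 0.64), had array means of 4.16, 3.15 and 3.76 in WT and 4.62, 4.38 and 3.76 in KO-labelled ureters, and summed signal from 8.31 to 9.03 and from 8.75 to 9.34. Its part in the values of Adgrg2 was not tested.

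The marker lists are given beside the leukocyte receptors. The macrophage list, all 9 of 9 measured, had 8 genes lower and 1 higher (median difference -0.52), and its array means were 4.09, 4.49 and 4.31 in WT and 3.77, 3.56 and 4.14 in KO-labelled ureters. The log2 of its summed signal ranged from 8.13 to 8.44 in WT and from 7.44 to 8.05 in KO-labelled ureters. KO replicates 1 and 2 were the lowest arrays for this list, for Adgre4 and for Adgre5. The neutrophil list, 9 of 9 measured, had means of 1.41, 2.86 and 2.19 in WT and 1.68, 1.99 and 2.69 in KO-labelled ureters, with summed signal from 7.20 to 8.34 and from 7.29 to 8.34. WT replicate 1 and KO replicate 1 were the lowest, and WT replicate 2 and KO replicate 3 the highest, both for this list and for Adgrg3. The T and NK cell list, 8 of 10 measured (Cd8a and Ncr1 were not), had means from -2.31 to -1.85 in WT and from -2.75 to -1.75 in KO-labelled ureters. The part of cell numbers in these values was not tested, and in whole tissue fewer cells of a type and less RNA per cell cannot be told apart.

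**Figure D3:**
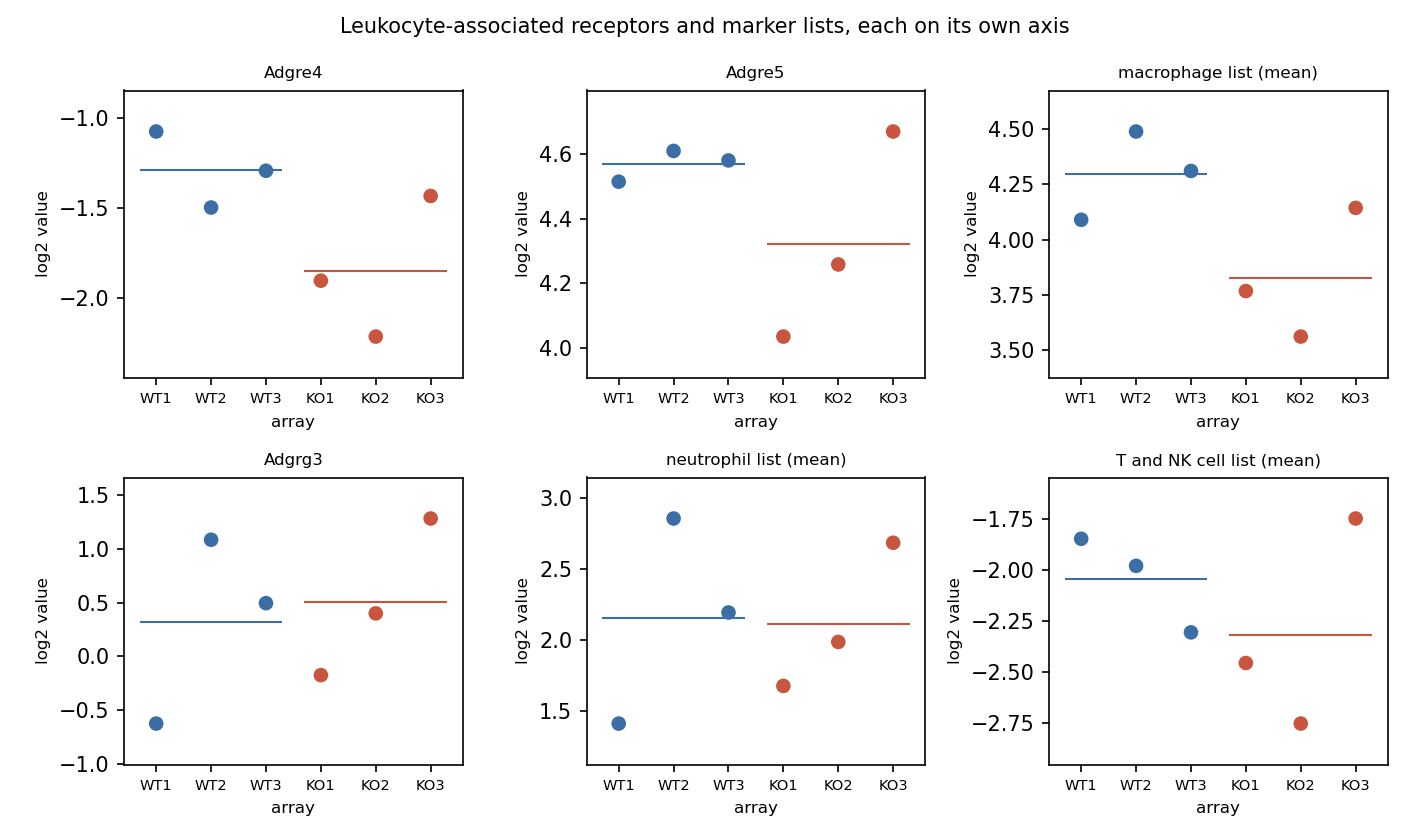
Log2 values by array (WT blue, KO-labelled red, lines at the group means of 3) for Adgre4, Adgre5 and Adgrg3, with the mean log2 values of the macrophage, neutrophil and T and NK cell lists, each panel on its own axis. Adgre4, Adgre5 and the macrophage list are lowest in KO replicates 1 and 2, and Adgrg3 and the neutrophil list are lowest in WT replicate 1.

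Epithelial lists are given beside Adgrf4. The basal urothelium list, 8 of 8 measured, had 6 genes higher and 2 lower (median 0.73), with array means of 2.87, 3.33 and 3.69 in WT and 3.73, 4.12 and 3.74 in KO-labelled ureters and summed signal from 6.61 to 7.43 and from 7.70 to 8.02. The WT order of replicates 1, 2 and 3, and KO replicate 2 as the highest array, were the same as for Adgrf4. The same held for the squamous epithelium list, the endothelial list and Col17a1, so this order does not single out the basal list. KO replicate 3 lay above KO replicate 1 in each of these lists and below it for Adgrf4. The squamous epithelium list, 10 of 12 measured (Krt4 and Sprr1b were not), had means of -1.22, 0.08 and 0.48 in WT and 0.21, 0.66 and 0.31 in KO-labelled ureters, so the groups overlapped, and summed signal from 6.41 to 6.93 and from 7.09 to 7.71. The superficial urothelium list, 9 of 9 higher (median 0.88), had means of 4.79, 3.97 and 4.47 in WT and 5.65, 5.34 and 4.84 in KO-labelled ureters, and summed signal from 7.79 to 8.30 and from 8.53 to 9.12. Krt7, Krt19 and Krt20, keratins of urothelium, differed by 0.95, 0.82 and 0.88. The mesothelium list, 5 of 6 measured (Bnc1 was not) and all 5 higher, had the median 1.04, above those of the 3 epithelial lists. Its array means were -1.37, -2.30 and -2.35 in WT and -0.81, -1.43 and -1.29 in KO-labelled ureters, which overlap, and its summed signal ran from 1.17 to 1.86 and from 2.15 to 2.36. Msln, the mesothelial surface protein mesothelin, differed by 1.48 with a standard error of 0.35. The part of epithelial or mesothelial content in the difference of Adgrf4 was not tested.

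**Figure D4:**
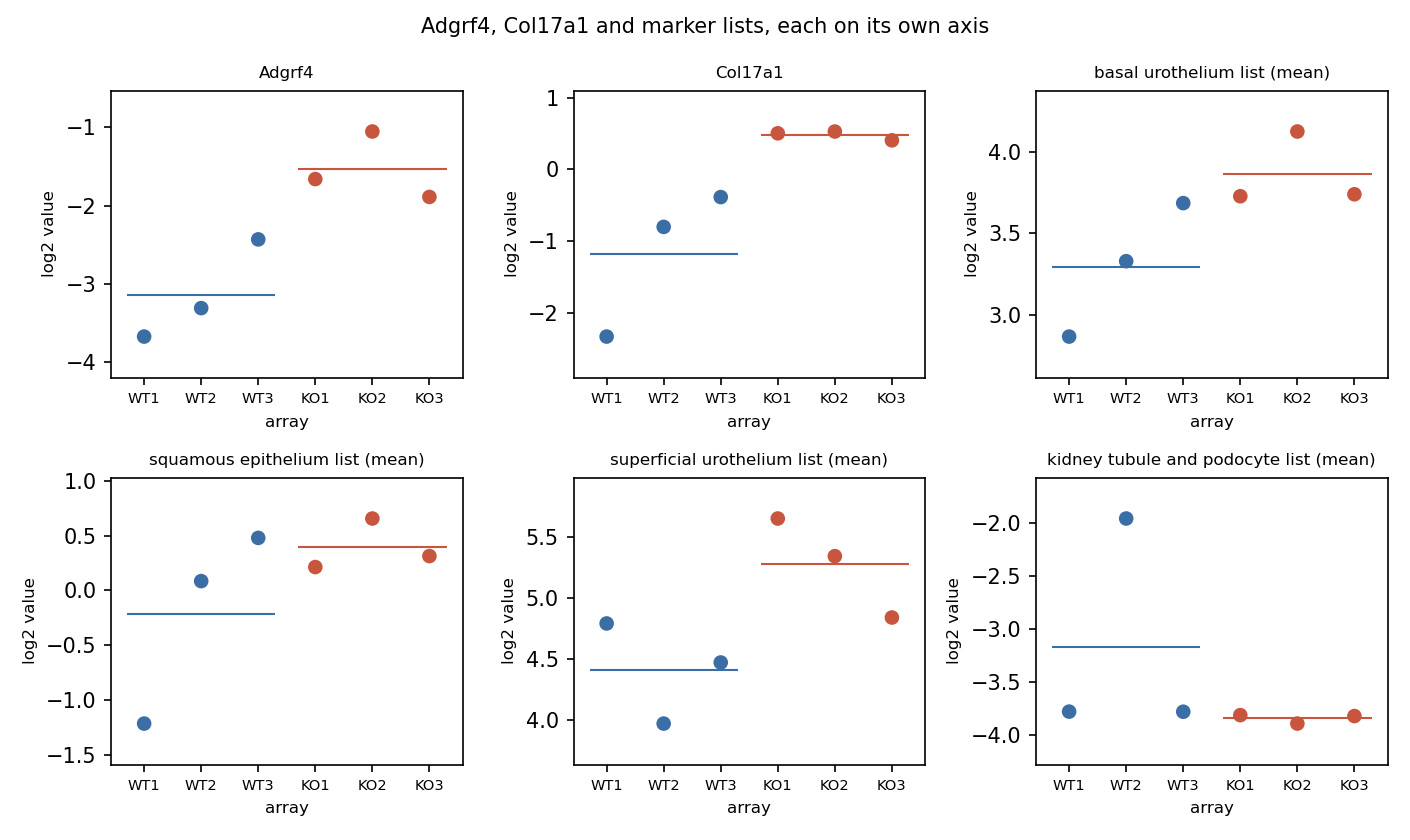
Log2 values by array (WT blue, KO-labelled red, lines at the group means of 3) for Adgrf4 and Col17a1, with the mean log2 values of 4 marker lists, each panel on its own axis. All KO-labelled arrays lie above all WT arrays for Adgrf4, Col17a1, the basal list and the superficial list, and the kidney list is high only in WT replicate 2.

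Subfamily L, the latrophilins with Adgrl4, had 4 measured members with a median of 0.19. Adgrl1, which binds teneurins and FLRT proteins, had values of 3.38, 3.05 and 3.03 in WT and 3.51, 3.24 and 3.40 in KO-labelled ureters, and a difference of 0.23 with a standard error of 0.14. Adgrl2 had values of -0.65, -0.41 and -0.29 in WT and -0.48, -0.06 and -0.35 in KO-labelled ureters, and a difference of 0.15 with a standard error of 0.16 (0.04 without KO replicate 2, 0.06 without WT replicate 1, 0.24 without KO replicate 1 and 0.23 without WT replicate 3). The values of both genes overlapped between groups.

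Adgrl3, a synaptic receptor, had 7 probes on the array, of which 1 was well above background on all 6 arrays. That probe differed by 0.44 with a standard error of 0.36 (0.04 without WT replicate 2, which was its lowest array, and 0.07 with normexp background). A second probe, at 82225574 to 82225633 on chromosome 5, (mm9), carried the flag on all 3 KO-labelled arrays and on no WT array. Its values were -5.10, -5.78 and -5.67 in WT and -4.35, -4.42 and -4.51 in KO-labelled ureters. The signals behind them were dim, 4.58, 2.61 and 3.11 units in WT and 7.73, 7.71 and 6.39 units in KO-labelled ureters. This second probe passed the filter only through the group in which it is high, so nothing is read from its direction or size. Adgrl4 (ELTD1), an endothelial receptor, differed by -0.08 with a standard error of 0.22, and its sign turned without KO replicate 3 (0.08) and without KO replicate 1 (0.01). The endothelial list, 10 of 10 measured, had a median of 0.08, and KO replicate 2 was its highest array, as it was for Adgrl4 and Adgrf5. KO replicate 2 was the highest array for 9 of the 20 measured members, so this does not single out the endothelial receptors. The part of endothelial content in their values was not tested.

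Subfamily A had 3 measured members, 1 higher and 2 lower, with a median of -0.13. Adgra2 (GPR124), the vessel receptor of the RECK complex, had values of 2.70, 2.86 and 2.93 in WT and 2.93, 2.96 and 2.81 in KO-labelled ureters, the narrowest range of any measured member, 0.26. Its difference was 0.07 with a standard error of 0.11 (0.0069 without WT replicate 1, 0.12 without WT replicate 3 or KO replicate 3 and 0.04 without KO replicate 2). Adgra3 had values of 1.18, 1.27 and 1.29 in WT and 1.11, 1.29 and 0.96 in KO-labelled ureters, and a difference of -0.13 with a standard error of 0.12 (-0.04 without KO replicate 3, -0.21 without KO replicate 2). Adgra1 differed by -0.19 with a standard error of 0.39, and its sign turned without WT replicate 3 (0.09) and without KO replicate 3 (0.12). Its signals were dim, from 8.33 units in KO replicate 3 to 23.95 units in KO replicate 2, so neither a small nor a large difference is shown.

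Subfamily B holds the BAI receptors of brain. Adgrb3, which binds C1q-like proteins at synapses, was the member whose KO-labelled arrays all lay below WT, with values of 2.65, 2.81 and 2.77 in WT and 2.49, 2.59 and 2.46 in KO-labelled ureters and a difference of -0.23 with a standard error of 0.10. This probe, at 25274940 to 25274999 on chromosome 1 (mm9, minus strand), is assigned to an Ensembl transcript, while the other 3 Adgrb3 probes, among them that of the RefSeq mRNA with values between -7.42 and -7.27, were not well above background on any array. The level at the bright probe is therefore not shown to be that of the receptor mRNA. Adgrb2 had values of -1.18, -1.77 and -1.29 in WT and -0.95, -1.30 and -1.43 in KO-labelled ureters, a difference of 0.19 at its brighter probe and of -0.11 at the other, so its measured probes differed in sign. The brighter-probe difference was 0.0093 without WT replicate 2, 0.05 without KO replicate 1, 0.30 without WT replicate 1, 0.29 without KO replicate 3 and 0.09 with normexp background. Adgrb1, which helps to engulf apoptotic cells, differed by -0.06, and its sign turned without WT replicate 1 (0.18) and without KO replicate 3 (0.09). Its signals were dim, from 8.37 units in WT replicate 2 to 17.5 units in WT replicate 1.

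Adgrd1 (GPR133), which couples to Gs and is the single member of subfamily D, had values of 1.38, 0.94 and 1.22 in WT and 1.76, 1.41 and 1.16 in KO-labelled ureters. Its 3 probes differed by 0.27, 0.29 and 0.59, and the brightest had a standard error of 0.19 (0.11 without KO replicate 1). At the probe with 0.59, values were -1.70, -2.25 and -1.89 in WT and -0.99, -1.49 and -1.61 in KO-labelled ureters, without overlap. At its other probes the groups overlapped. Overlap and the place of KO replicate 3 thus depend on the probe, and the counts of members above use the brightest. Adgrv1, the largest adhesion receptor and a protein of hair cell stereocilia, was well above background in 1 of 42 probe and array pairs.

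Of the family members whose names do not fall under the rule, Adgre1 (F4/80 of macrophages) had a difference of -0.89 with a standard error of 0.21 and Celsr1, a cadherin of planar polarity, of 0.66 with a standard error of 0.19. Celsr2 and Celsr3 differed by 0.31 and 0.16.

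Known ligands and partners were measured for 23 of 33 genes, 14 higher and 9 lower (median 0.08), and no gene passed in either direction (limma, threshold of 0.05). C1ql3, a ligand of ADGRB3, differed by -0.46 ± 0.15 (difference and standard error). Its signal was dim, with a WT mean of -4.56 and a KO-labelled mean of -5.01. Whether C1ql3 passed the filter through both groups or only through WT was not checked, so nothing is read from its difference. Flrt2, a ligand of latrophilins, differed by -0.34 ± 0.14, and Wnt7b, the Wnt that ADGRA2 and RECK respond to, by 0.53 ± 0.27. The median of this list was -0.02 without KO replicate 2. The groups did not overlap for 3 of the 23 measured ligand genes, all lower, the dim C1ql3 among them. Of all genes 15.4% did not overlap in either direction and 8.13% with KO-labelled arrays below, and nothing is read from this count.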

How the data were processed

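Total RNA of ureters was labelled with Cy3 and hybridised to 1-colour Agilent arrays, 1 for each of 6 samples, per the labels' protocols. The deposited spot intensity values were made with Agilent Feature Extraction 12.0.3.1, per the submitters' processing notes, with background taken off and spatial trends removed, per the file headers. The authors' normalisation across arrays was not given in the sources used here. The deposited flags for signals well above background are 0 or 1 per spot. Probe coordinates are mm9, per the file headers.

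Control and outlier spots were left out and spots of a probe averaged over 56605 probes. The log2 of the deposited processed signal was centred on the array's 75th percentile. A probe entered if its flag was 1 on all 3 arrays of either group, and a gene was read from the brightest of its probes. Genotype was fitted with lmFit and eBayes of limma 3.58.1 (R 4.3.3) over 22260 genes with Benjamini-Hochberg adjustment. The fit was also run on simulated data with independent normal noise, where fitted differences were required to follow the planted ones with a slope near 1. A linear fit meets that almost by construction. The share of planted changes called is not given here, so this run says nothing on power. An exact permutation test of 3 against 3 arrays cannot go below a two-sided p of 0.1, and the number of arrays limits the precision.

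The members and gene lists were chosen with earlier results of these data known. Results of 1 member and of 1 gene list are not reported here, and the other members are named. Values by array are given for subfamily F, members without overlap between groups and the 2 brightest members of each other subfamily, with Adgrg2 and Adgrg6 added after their values were seen. Of each other list, up to 3 genes with the lowest unadjusted p are named. Alternatives covered background correction, normalisation, the filter, probe choice, the variance model, the replicate block and leaving out arrays.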

Additional observations from a re-analysis of the deposited data

How the results depend on the processing

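The direction was kept by 16 of 20 measured members in all 15 alternatives, and 4 (Adgra1, Adgrb1, Adgrg3 and Adgrl4) changed sign in some. The variance model, the replicate block and the changes to the filter left the difference of every measured member as it was. Those settings could not turn a sign, and the fits with arrays left out share arrays with the main fit. The count of 16 is therefore not a set of independent checks, and the matching share of all genes was not worked out. The 8 planned settings on processing and the arrays left out in turn were followed by 1 chosen after seeing the data, without WT replicate 2 and KO replicate 3 together. Leaving out KO replicate 3 removes the only female with all else particular to that sample, so it is not an adjustment for sex. Adgrf4 differed by 0.603 with normexp background, and the subfamily F median was 0.418 there and -0.0252 with no filter on dim probes, where the subfamily G median was 0.184; dropping the filter adds 3 dim subfamily F members. The count of members without overlap between groups was 2 to 11 with each array left out, and 11 without both arrays, where 41.2% of all genes did not overlap. The subfamily B median was -0.1996 to 0.179 and the subfamily G median 0.205 to 0.505 with each array left out. Genes past the threshold numbered 0 to 1 with each array left out. Same-numbered samples correlated in their deviations at 0.531, -0.149 and -0.0295, and differently numbered ones at -0.451 to 0.461. With 3 arrays per group these values depend on each other, so they cannot decide whether the numbers pair the samples. The fit with the replicate block called 1 gene, not a member. Median centring raised the share of genes higher in the KO-labelled group from 49.8% to 55.2%. Dim signal limits the value of Adgrf4, whose WT signals were 12.3 to 29.3 units. The cause of the other changes was not tested.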
